A study of Homo sapiens with 6 samples.

Results

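Axon guidance ligands and receptors are the secreted and membrane proteins through which neighbouring cells steer each other. They were taken as the protein-coding genes whose symbols carry the names of the semaphorins, plexins, neuropilins, ephrins, Eph receptors, netrins, UNC5 receptors, DCC, Slits or Robos. Of the 58735 genes in the count table, 71 met this rule: 20 semaphorins, 11 plexins and neuropilins, 8 ephrins, 14 Eph receptors, 11 netrins and netrin receptors, and 7 Slits and Robos. A filter on low counts left 52 of the 71 for testing, among 17574 genes in all. The match to the UNC5 name also brought in UNC50 and UNC5CL, which are no netrin receptors and are given apart below.

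The cells were human colorectal cancer cells of the line SW480 by the deposited labels. SW480 is an epithelial line from a colon adenocarcinoma. The study's text names HCT116, another colorectal cancer line, for its RNA sequencing, so the line is given here as labelled. The control group held 3 libraries, labelled sw480_shNc1 to 3, and the CNOT7 knockdown group held 3 libraries, labelled sw480_sh1 to 3. The knockdown cells were a stable short-hairpin RNA line, and none of the 6 libraries came from treated or irradiated cells. Which hairpin the knockdown libraries carry is not stated. Nothing says that the libraries of a group came from separate cultures, so the p-values measure the spread between these libraries, which may be technical.

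These families were first described in the growing nervous system and are also used by epithelia and tumours. Ephrins sit on the membrane of a cell and bind Eph receptor tyrosine kinases on its neighbour, A-class with A-class and B-class with B-class for the most part. Secreted class 3 semaphorins bind neuropilins, which signal through plexins, while membrane-bound semaphorins bind plexins directly. Netrins bind DCC and the UNC5 receptors, and Slits bind Robos. In the intestinal lining EphB receptors and ephrin-B ligands keep the cells of the crypt and of the surface apart, and netrin receptors can trigger the death of cells that lack their ligand. CNOT7 is a catalytic subunit of the CCR4-NOT complex, which shortens the poly(A) tails of messenger RNAs. The complex is brought to RNAs by proteins such as the Pumilio family and the AU-rich element binding protein TTP, which recognise short words in 3′ untranslated regions (UTRs).

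The targeted gene separated the groups as labelled. CNOT7 stood at 169.1, 191.1 and 175.8 CPM (library-normalized counts, scaled so that libraries of different depth compare) in the control libraries and at 43.4, 47.2 and 38.6 CPM in the knockdown libraries, which is 24.1% of the control level (log2 fold change -2.05, SE 0.07, edgeR adjusted p = 2.64e-12). The libraries held 23788451 to 25982493 counts in the control group and 27523812 to 29104872 counts in the knockdown group. The axon guidance genes together took 0.255 to 0.280% of the counts in control libraries and 0.250 to 0.282% in knockdown libraries. Mitochondrial ribosomal RNA took 0.990 to 1.05% and 1.44 to 1.58% of the counts, respectively, and its part in the results below was not tested. The 10 markers of colorectal epithelium summed to 5555 to 5973 CPM in controls and 5134 to 5684 CPM in knockdowns. The keratins KRT8, KRT18 and KRT19 carried this sum, with control means of 2750, 2025 and 720.2 CPM. EPCAM averaged 212.3 CPM and CDX2 41.4 CPM in controls. The intestinal markers KRT20 and LGALS4 had 7 and 34 counts over all 6 libraries and were not tested, and CDH17 averaged 0.566 CPM in controls. The 8 neuronal markers summed to 34.8 to 42.7 CPM and 37.1 to 41.1 CPM, with STMN2 and NEFL at 0 in every library. SYT1 carried most of this sum, with means of 26.0 and 22.4 CPM (adjusted p = 0.111). SYP rose from a mean of 1.71 to 3.90 CPM (log2 fold change 1.19, adjusted p = 0.000421). SNAP25 went from 9.68 to 12.3 CPM and did not pass (adjusted p = 0.0611). The 8 endothelial markers summed to 2.04 to 2.88 CPM and 3.26 to 3.88 CPM, and the 7 fibroblast markers to 9.07 to 10.8 CPM and 10.4 to 11.9 CPM, with EMCN, COL3A1 and DCN at 0 in every library. Of the markers tested, none of 2 endothelial and 2 fibroblast genes passed the test, 1 of 3 neuronal genes was higher, and 2 of 8 epithelial genes were higher and 2 lower. The higher epithelial genes were VIL1 (log2 fold change 0.72, adjusted p = 2.93e-05) and CDH1 (0.51, adjusted p = 0.000155). The lower ones were KRT19 (-0.18, adjusted p = 0.0212) and KRT8 (-0.15, adjusted p = 0.0414).

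After CNOT7 knockdown the axon guidance genes moved in both directions, with more members higher than lower. Of the 52 tested genes, 27 passed the test (edgeR quasi-likelihood test, Benjamini-Hochberg adjusted p under 0.05 over all tested genes), 19 of them higher and 8 lower. This was 51.9% of the members, against 25.2% of all tested genes. The higher calls made up 36.5% of the members against 13.3% of all tested genes, and the lower calls 15.4% against 11.9%. The members were chosen with earlier results of these data known, so these shares are descriptions and were not tested. The median log2 fold change was 0.10 over the tested members and 0.00 over all tested genes. The largest rises were in NTN5, EPHA8 and PLXNA2, all at low levels, and the largest falls were in EFNA5 and SEMA5A, also at low levels. At high levels EPHB6 rose by 62.4%, while EPHA2 fell by 25.8% and PLXNA1 fell by 21.8%. All 27 called members had CPM values that did not overlap between the groups. The same held for 4288 of the 4424 called genes among all tested genes, so this adds little to the call. The groups did not overlap in 32 of the 52 tested members, against 38.8% of all tested genes. An absolute log2 fold change of at least 1 was met by 5 of the 27 called members. These were 5 of the 52 tested members, against 638 of all 17574 tested genes, or 3.63%.

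**Figure D1:**
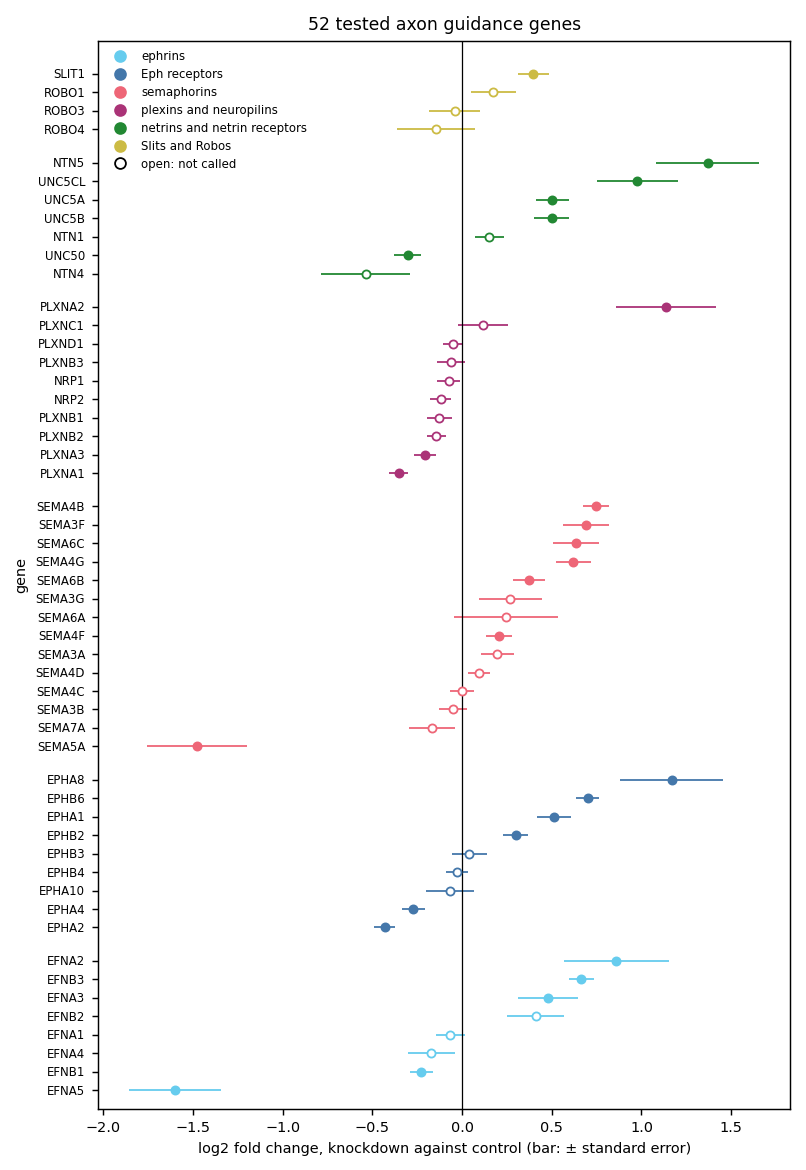
Log2 fold change of each of the 52 tested axon guidance genes after CNOT7 knockdown, with its standard error as a bar, ordered within families; filled points passed the test and open points did not. The 19 higher calls reach from 0.21 for SEMA4F to 1.37 for NTN5 and occur in every family, and the 8 lower calls reach from -0.21 for PLXNA3 to -1.60 for EFNA5.

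The ligands and the receptors were both mixed. Of 26 tested ligands, 11 were higher and 3 lower, or 53.8% called against 25.2% of all tested genes, with a median log2 fold change of 0.22. Of 24 tested receptors, 7 were higher and 4 lower, or 45.8% called, with a median of -0.05. Whether ligands and receptors differed was not tested. UNC50 and UNC5CL are left out of both counts. Without them 25 of 50 tested members passed the test, 18 higher and 7 lower.

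Ephrins were all expressed, and their members diverged. All 8 passed the filter, with 3 higher (EFNA2, EFNA3 and EFNB3) and 2 lower (EFNA5 and EFNB1). The share called was 62.5%, against 25.2% of all tested genes. Among the A-class ligands, which hang on the membrane by a lipid anchor, EFNA5 changed most. EFNA5 (chr5:107376889-107670895, reverse strand, GRCh38) stood at 4.36, 3.27 and 4.03 CPM in controls and at 0.887, 0.942 and 1.98 CPM in knockdowns. Every knockdown library was below every control library, and the third knockdown library was the highest of its group. The knockdown mean was 33.0% of the control mean (log2 fold change -1.60, SE 0.25, adjusted p = 0.000175). Without the third knockdown library the log2 fold change was -2.09 and the adjusted p 2.66e-06, in a range from 1.16e-12 to 0.0022 over all alternatives.

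The annotated 3′ UTR of EFNA5 spans 4366 bases and holds both kinds of word that were searched, which are shown because EFNA5 had the largest fall of the members. Capitals mark the Pumilio word TGTANATA, where N is any base, or the AU-rich word TATTTAT, each written as DNA on the transcript strand. Among tested genes with a 3′ UTR at least as long, cut to 4366 bases, 52.5% held the Pumilio word and 64.85% the AU-rich word.
EFNA5 Pumilio, word from base 3104 after the stop codon: gcaacctctgtTGTACATAgtgtttgataa
EFNA5 Pumilio, word from base 4300: cgatctgtattTGTATATAcacgtgtccgt
EFNA5 AU-rich, word from base 438: ctcctatgcaaTATTTATgccttctcattc
EFNA5 AU-rich, word from base 2211: tttcctttagcTATTTATatatgcagtact

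The other A-class ligands lay nearer to the control level. EFNA2, a low-level ligand, stood at 0.739, 0.688 and 1.48 CPM in controls and at 2.09, 1.56 and 1.65 CPM in knockdowns. The third control library came close to the knockdown libraries. The log2 fold change was 0.86 (SE 0.29, adjusted p = 0.0405) and became 1.30 (adjusted p = 0.00774) without that library. The call was lost without the first or the second control library (adjusted p = 0.138 and 0.122), without the first knockdown library (0.171), the highest of the alternatives, by a narrow margin without the third, with DESeq2 (0.0613) and with cyclic loess (0.108). EFNA3 stood at 2.62 to 2.96 CPM in controls and 3.37 to 4.63 CPM in knockdowns (log2 fold change 0.48, SE 0.17, adjusted p = 0.0461). Its call was lost in 5 of 6 fits with a library left out, with adjusted p over all alternatives from 0.0267 to 0.202, the highest without the third knockdown library. The annotation gives 44.7% of its exonic bases also to AL691442.1, a gene on the same strand, so its reads may not all be its own. EFNA1, the A-class ligand with the highest level per kilobase, was at 95.5% of control and did not pass (adjusted p = 0.600), and EFNA4 was at 88.8% (adjusted p = 0.385). EFNA4 also shares 15.0% of its exonic bases with AL691442.1 on the same strand. EFNA4, EFNA3 and EFNA1 lie side by side on chromosome 1.

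The B-class ligands span the membrane. EFNB1 was the most abundant ephrin, with 72.2 ± 5.62 CPM per kilobase of gene length in controls (SD, n = 3) and 61.7 ± 3.96 in knockdowns. Its values were 252.0, 217.8 and 247.8 CPM in controls and 213.3, 189.3 and 210.5 CPM in knockdowns. The lowest control library lay just above the highest knockdown library. The log2 fold change was -0.23 (SE 0.06, adjusted p = 0.0147), and the call was lost without the first or the third control library (adjusted p = 0.0626 and 0.0788) and after removal of the trend with abundance by cyclic loess (adjusted p = 0.0857, in a range from 1.92e-06 to 0.0857). EFNB3, the ligand best known from the midline of the brain and spinal cord, rose from 30.7, 28.6 and 30.04 CPM to 47.2, 44.5 and 49.9 CPM (log2 fold change 0.67, SE 0.07, adjusted p = 3.07e-06). The gap between its groups was larger than the spread within either. EFNB2 stood at 132.8% of control with groups that did not overlap, but did not pass (adjusted p = 0.0652, and 0.0355 without the third knockdown library), and 26.2% of its exonic bases overlap an antisense gene. EFNB1 made up 87.9% of the summed ephrin-B level in controls and 79.8% in knockdowns. The summed ephrin-B level overlapped between the groups, at 82.1 ± 5.93 and 77.2 ± 4.60 CPM per kilobase, as did the ephrin-A level, at 19.8 ± 1.12 and 19.5 ± 1.99.

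Among the Eph receptors, abundant members changed in opposite directions. Of 9 tested receptors, 4 were higher (EPHB6, EPHB2, EPHA1 and EPHA8) and 2 lower (EPHA2 and EPHA4). The share called was 66.7%, against 25.2% of all tested genes. EPHA2, the main A-class receptor of epithelia and the usual partner of EFNA1, had the highest level per kilobase of the Eph receptors. It stood at 208.5, 189.9 and 198.5 CPM in controls and at 154.9, 138.2 and 149.8 CPM in knockdowns. Its groups lay well apart (log2 fold change -0.43, SE 0.06, adjusted p = 3.65e-05). EPHA4, which can bind ligands of both classes, stood at 84.6, 90.6 and 87.1 CPM in controls and at 73.0, 77.6 and 66.7 CPM in knockdowns (log2 fold change -0.27, SE 0.06, adjusted p = 0.0051). Its groups did not overlap either.

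EPHA1, the founding member of the family, moved the other way. Its values were 12.9, 12.3 and 13.3 CPM in controls and 19.2, 16.4 and 19.4 CPM in knockdowns (log2 fold change 0.51, SE 0.10, adjusted p = 0.000687). EPHA8, a receptor mainly of the nervous system, was near the lower limit of testing, with 13 to 19 counts in a control library and 36 to 48 in a knockdown library. Its CPM values were 0.506, 0.731 and 0.758 in controls and 1.70, 1.31 and 1.48 in knockdowns (log2 fold change 1.17, SE 0.29, adjusted p = 0.00615). Small as these levels are, the groups were apart.

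The promoters of EPHA1 and EPHA2 are shown because these A-class receptors changed in opposite directions. Each sequence is RefSeq's for GRCh38.p14 and runs on the reverse strand from 250 bases before the gene's start to 50 after it. Capitals mark the GC box, GGGCGG or its reverse complement CCGCCC.
EPHA1, chr7:143408807-143409106: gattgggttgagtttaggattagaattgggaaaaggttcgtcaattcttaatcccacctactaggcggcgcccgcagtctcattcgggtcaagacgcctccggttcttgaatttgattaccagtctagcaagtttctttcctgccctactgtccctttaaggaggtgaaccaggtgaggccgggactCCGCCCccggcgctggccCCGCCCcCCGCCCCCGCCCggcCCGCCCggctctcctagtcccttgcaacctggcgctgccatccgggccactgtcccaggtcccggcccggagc
EPHA2, chr1:16156020-16156319: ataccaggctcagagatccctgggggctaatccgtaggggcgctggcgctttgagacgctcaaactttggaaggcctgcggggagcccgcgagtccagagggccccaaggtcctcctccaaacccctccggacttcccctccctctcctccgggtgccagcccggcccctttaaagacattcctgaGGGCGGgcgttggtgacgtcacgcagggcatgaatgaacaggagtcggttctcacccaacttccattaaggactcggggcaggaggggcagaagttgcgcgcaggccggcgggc

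The EPHA1 window holds 5 GC boxes and the EPHA2 window 1. EPHA1 also holds 2 matches to the CCAAT box (CCAAT or ATTGG) and EPHA2 none, and neither holds a TATA box (TATAAA or TTTATA). A GC box occurred in 71.7% of 8157 tested genes with a single RefSeq promoter and in 45.0% of all 35116 promoters of this length. It occurred in all 12 higher, 7 lower and 13 not called members with a single promoter, so its presence did not separate the directions of change. The median GC content was 69.5% in the higher, 78.0% in the lower and 69.0% in the not called members, against 65.7% in the tested genes. Of the 71 members, 61 matched a promoter entry.

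The 3′ UTRs of the same receptors are short, with 345 annotated bases in EPHA1 and 878 in EPHA2. The words found in them are printed in the same way as for EFNA5, and the Pumilio word of EPHA1 overlaps AATAAA, the polyadenylation signal.
EPHA1 Pumilio, word from base 264: atatatattttTGTAAATAaacaggaactg
EPHA2 AU-rich, word from base 92: actggggacttTATTTATttctagttcttt
EPHA2 AU-rich, word from base 816: tattttttttaTATTTATtgttagaaaatg

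Among the B-class receptors EPHB6 changed most. EPHB6, whose kinase domain is inactive, rose from 90.7, 88.1 and 91.6 CPM to 149.1, 132.2 and 157.6 CPM (log2 fold change 0.70, SE 0.06, adjusted p = 5.31e-07). Every knockdown library was above every control library by more than the spread within the controls. EPHB2, a receptor of the crypt base, rose from 50.3, 44.5 and 49.3 CPM to 59.4, 55.8 and 61.9 CPM (log2 fold change 0.30, SE 0.07, adjusted p = 0.00433). EPHB4, the B-class receptor with the highest control level per kilobase, stood at 97.9% of control and EPHB3 at 102.8%, with overlapping groups and adjusted p of 0.769 and 0.813. EPHA10, which also lacks an active kinase, stood at 95.3% of control (adjusted p = 0.756). The signs of EPHB4, EPHB3 and EPHA10 changed when single libraries were left out.

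Per kilobase, the order of the receptor classes differed between the groups, through EPHA2 and EPHB6 in the main. The summed EphA level was 65.1, 61.4 and 63.1 CPM per kilobase in controls and 52.2, 48.0 and 50.3 in knockdowns, while the summed EphB level was 49.4, 45.4 and 48.0 in controls and 59.7, 54.0 and 62.3 in knockdowns. EphA exceeded EphB in all 3 control libraries, and EphB exceeded EphA in all 3 knockdown libraries. This order rests on division by a gene length that counts all annotated exons, and in plain CPM it did not hold in every control library. EPHA2 made up 75.7% of the EphA level in controls and 70.8% in knockdowns. EPHB6 went from 16.9 ± 0.34 to 27.5 ± 2.43 CPM per kilobase, which is nearly the whole rise of the EphB level. The other EphB receptors summed to 30.7 ± 1.76 CPM per kilobase in controls and 31.2 ± 1.87 in knockdowns, with overlapping groups. These sums are descriptions and were not tested. In bulk RNA, fewer cells that express a gene and less RNA per cell cannot be told apart.

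**Figure D2:**
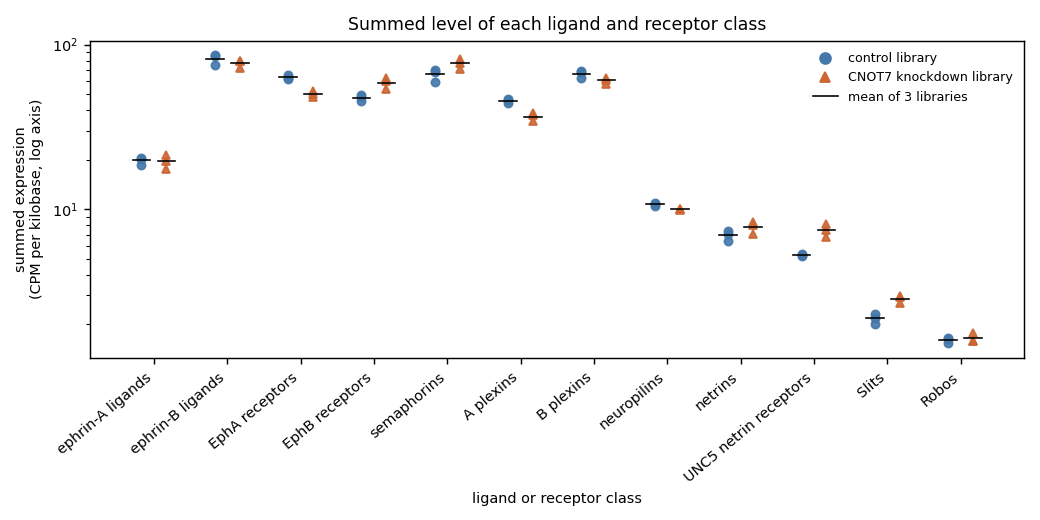
Summed expression of each ligand or receptor class, in CPM per kilobase of gene length on a log axis, with 1 point per library (circles, control; triangles, CNOT7 knockdown) and a line at the mean of 3 libraries. EphA receptors, A plexins and neuropilins were lower in every knockdown library than in every control library, and EphB receptors, semaphorins, UNC5 receptors and Slits were higher, while ephrins, B plexins, netrins and Robos overlapped.

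Semaphorins were mostly higher or not called. Of 14 tested semaphorins, 6 were higher (SEMA4B, SEMA3F, SEMA6C, SEMA4G, SEMA6B and SEMA4F) and 1 lower (SEMA5A), with a median log2 fold change of 0.22. Their summed level was 70.0, 59.6 and 68.0 CPM per kilobase in controls and 77.6, 71.2 and 82.1 in knockdowns, so the groups lay apart by a narrow margin. The higher members came from classes 3, 4 and 6. Of the 5 tested class 4 members, which span the membrane, 3 were higher and none lower, or 60.0% called.

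SEMA4B had the smallest adjusted p of the semaphorins. It rose from 28.3, 26.1 and 25.9 CPM to 44.9, 42.9 and 46.8 CPM (log2 fold change 0.75, SE 0.07, adjusted p = 9.47e-07). No knockdown library came near the controls. SEMA4G, another class 4 member, stood at 13.0, 11.0 and 11.6 CPM in controls and at 17.5, 17.7 and 19.5 CPM in knockdowns (log2 fold change 0.62, SE 0.10, adjusted p = 0.000142). Of its exonic bases, 27.4% overlap MRPL43 or AL133215.1 on the opposite strand. The strand setting of the counting is not stated, so its reads may be partly those of these genes. SEMA4F was at 115.3% of control (log2 fold change 0.21, SE 0.07, adjusted p = 0.0438). Its call was lost in 5 of 6 fits with a library left out (adjusted p over all alternatives from 0.00567 to 0.212, the highest without the first knockdown library) and with DESeq2 (0.0628). SEMA4D, the ligand of the receptor PLXNB1, stood at 106.6% of control and SEMA4C at a log2 fold change of 0.00, and neither passed (adjusted p = 0.307 and 1.0).

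SEMA6B, which binds A plexins, had the highest control level per kilobase of the semaphorins, at 18.0 ± 2.45 CPM per kilobase. It stood at 88.3, 67.4 and 82.5 CPM in controls and at 106.4, 90.7 and 111.4 CPM in knockdowns. The lowest knockdown library was close to the highest control library. The log2 fold change was 0.37 (SE 0.09, adjusted p = 0.00512). SEMA6C rose from 4.75, 4.17 and 4.31 CPM to 6.99, 6.60 and 6.98 CPM (log2 fold change 0.64, SE 0.13, adjusted p = 0.00142). SEMA6A, at about 1 CPM, did not pass (log2 fold change 0.24, SE 0.29, adjusted p = 0.593).

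SEMA3F was the only one of 4 tested class 3 members to pass. SEMA3F, a secreted repellent that binds NRP2, stood at 8.48, 6.96 and 7.18 CPM in controls and at 11.21, 10.8 and 14.5 CPM in knockdowns (log2 fold change 0.69, SE 0.13, adjusted p = 0.000759). The third knockdown library was the highest of the 6. SEMA3B, its neighbour on chromosome 3, stood at 96.5% of control with overlapping groups (adjusted p = 0.687). SEMA3A, the ligand of NRP1, stood at 114.6% with groups that did not overlap, but did not pass (adjusted p = 0.140), and SEMA3G stood at 120.5% (adjusted p = 0.292). SEMA7A, a lipid-anchored ligand of PLXNC1, stood at 88.9% (adjusted p = 0.371).

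SEMA5A was the single semaphorin that fell. SEMA5A (chr5:9035026-9546075, reverse strand, GRCh38), a membrane ligand with thrombospondin repeats that binds PLXNB3, stood at 1.67, 1.81 and 1.44 CPM in controls and at 0.568, 0.652 and 0.537 CPM in knockdowns. These are 36 to 43 counts in a control library and 16 to 18 in a knockdown library. The knockdown mean was 35.9% of the control mean (log2 fold change -1.48, SE 0.28, adjusted p = 0.000797). No knockdown library came near the controls.

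**Figure D3:**
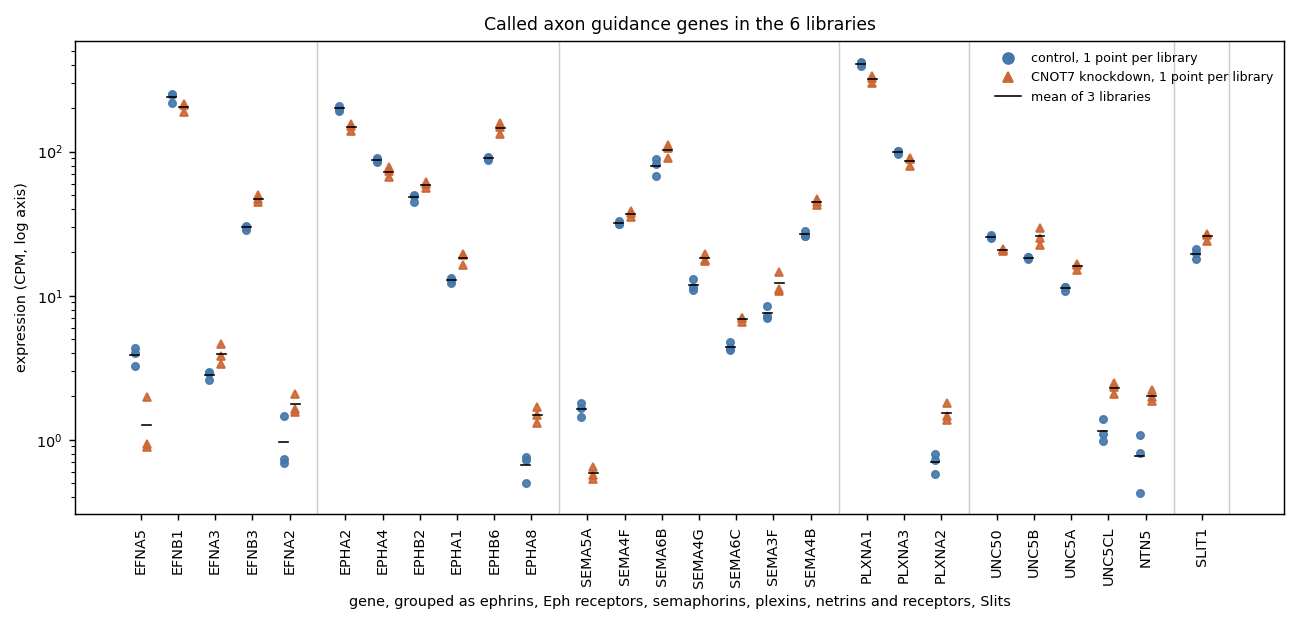
Expression of the 27 called axon guidance genes in CPM on a log axis, with 1 point per library (circles, control; triangles, CNOT7 knockdown) and a line at the mean of 3 libraries. None of these genes has overlapping groups, which is usual for called genes in these data. The margin is narrow for EFNA2, EFNB1 and SEMA6B and wide for EPHB6, SEMA4B and EFNB3.

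Plexins and neuropilins, the receptors of the semaphorins, were mostly near the control level or below it. Of 10 tested, 1 was higher (PLXNA2) and 2 lower (PLXNA1 and PLXNA3), with a median log2 fold change of -0.10. The share called was near the 25.2% of all tested genes. All 3 tested A plexins passed. PLXNA1 (chr3:126988594-127037392, forward strand, GRCh38), which signals for class 3 and class 6 semaphorins, stood at 416.1, 391.4 and 410.8 CPM in controls and at 322.0, 299.0 and 331.7 CPM in knockdowns. Its groups were separated by more than the range of either (log2 fold change -0.35, SE 0.05, adjusted p = 0.000102). PLXNA3 stood at 101.3, 96.5 and 101.0 CPM in controls and at 88.9, 79.4 and 90.8 CPM in knockdowns (log2 fold change -0.21, SE 0.06, adjusted p = 0.0220). Its call was lost without the first or the third control library (adjusted p = 0.0644 and 0.0912), without the second knockdown library (0.0628) and with cyclic loess (0.0851), in a range from 0.000123 to 0.0912.

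PLXNA2 went the other way from a low level. It rose from 0.584, 0.731 and 0.798 CPM to 1.45, 1.38 and 1.81 CPM (log2 fold change 1.14, SE 0.28, adjusted p = 0.00611), on 15 to 20 counts in a control library and 38 to 54 in a knockdown library. The summed A plexin level followed PLXNA1 and went from 45.7 ± 1.42 to 36.5 ± 2.07 CPM per kilobase, with groups apart.

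The 3′ UTR of PLXNA1 spans 3375 annotated bases and holds 3 Pumilio words, the most of the lower members, and they are shown for that reason. The one nearest to the end overlaps AATAAA.
PLXNA1 Pumilio, word from base 1209: aaagctgtacaTGTATATAtatgcatatat
PLXNA1 Pumilio, word from base 3276: gccctcagatgTGTACATAtacggctattt
PLXNA1 Pumilio, word from base 3325: gatttagtactTGTAAATAaacacacacat

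The B plexins and the neuropilins did not pass the test in the fit reported here. PLXNB2, with 53.5 ± 2.81 CPM per kilobase in controls the most abundant of the family, stood at 90.5% of control, with groups that did not overlap and an adjusted p of 0.0605. It passed with RLE factors (0.0482), without a filter on low counts (0.0317) and without the second control library (0.0172). PLXNB1 stood at 91.5% (adjusted p = 0.199, and 0.0369 without the second control library), and PLXNB3, a partner of SEMA5A, at 95.7% (adjusted p = 0.617). PLXNB3 shares 20.4% of its exonic bases with SRPK3 on the same strand. NRP1 stood at 95.0% of control (adjusted p = 0.443). NRP2 stood at 92.0%, also with groups that did not overlap (adjusted p = 0.141). PLXND1, the receptor of SEMA3E, stood at 96.6% and PLXNC1 at 108.4% (adjusted p = 0.574 and 0.587).

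Netrins and netrin receptors held the largest rise of all members. Of 7 tested genes that carry these names, 4 were higher and 1 lower, among them UNC5CL and UNC50. The share called was 71.4%, against 25.2% of all tested genes. NTN5, a netrin of low abundance, stood at 0.817, 0.430 and 1.08 CPM in controls and at 2.24, 1.99 and 1.85 CPM in knockdowns. The controls spread widely, on 10 to 27 counts, and all stayed below the knockdowns. The log2 fold change was 1.37 (SE 0.29, adjusted p = 0.00191). NTN1, the most abundant netrin and the ligand of DCC and UNC5 receptors, stood at 38.3 ± 2.75 CPM in controls and 42.6 ± 3.99 CPM in knockdowns, with overlapping groups (adjusted p = 0.186, and 0.0362 without the second knockdown library). NTN4, which binds laminins of the basement membrane, stood at 2.49, 2.28 and 2.08 CPM in controls and at 1.31, 1.12 and 2.25 CPM in knockdowns. The third knockdown library lay within the controls. The log2 fold change was -0.54 (SE 0.25, adjusted p = 0.127), and -0.91 (adjusted p = 0.0121) without that library, in a range of adjusted p from 0.0121 to 0.340 over all alternatives.

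Both tested UNC5 receptors, which carry a death domain and mediate repulsion by netrin, rose by a like amount. UNC5B went from 18.5, 18.6 and 17.9 CPM to 25.3, 22.6 and 29.7 CPM (log2 fold change 0.50, SE 0.10, adjusted p = 0.000954). UNC5A went from 11.5, 10.8 and 11.5 CPM to 16.3, 15.1 and 16.5 CPM (log2 fold change 0.50, SE 0.09, adjusted p = 0.000717). The groups of both were apart. Their partner DCC had 3 counts in all 6 libraries together and was not tested. Of the 2 genes that only share the name, UNC5CL, an adapter of NF-kB signalling, rose from 1.09, 0.989 and 1.40 CPM to 2.48, 2.07 and 2.32 CPM (log2 fold change 0.98, SE 0.23, adjusted p = 0.004). It shares 23.8% of its exonic bases with OARD1 on the same strand. UNC50, a Golgi membrane protein, fell from 25.6 ± 0.58 CPM to 20.7 ± 0.45 CPM (log2 fold change -0.30, SE 0.08, adjusted p = 0.00721).

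Slits and Robos had a single call among 4 tested, a share near that of all tested genes. SLIT1, a secreted ligand of the Robos, stood at 21.0, 19.8 and 17.9 CPM in controls and at 26.3, 24.1 and 26.9 CPM in knockdowns (log2 fold change 0.40, SE 0.09, adjusted p = 0.00234). It made up 99.2% of the summed Slit level in controls. The receptor ROBO1 stood at 112.9% of control, ROBO3 at 97.2% and ROBO4, the endothelial Robo, at 90.3%, all with overlapping groups (adjusted p = 0.335, 0.867 and 0.675).

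The 19 members that were not tested were EPHA3, EPHA5, EPHA6, EPHA7 and EPHB1 among the Eph receptors, SEMA3C, SEMA3D, SEMA3E, SEMA4A, SEMA5B and SEMA6D among the semaphorins, PLXNA4, the netrin family members NTN3, UNC5C, UNC5D and DCC, and ROBO2, SLIT2 and SLIT3. Each had 0 to 54 counts summed over the 6 libraries and at most 15 in any library. No count at all was found for EPHA5, EPHA6 and EPHA7. In a single library, a count of 0 allows up to 3 counts, which are 0.103 to 0.126 CPM. This limit covers counting error only. When the filter was removed, 16 of the 19 were tested and 1 passed, SEMA5B, with 0, 4 and 4 counts in controls and 9, 15 and 14 in knockdowns (log2 fold change 1.97, SE 0.65, adjusted p = 0.0218). In the fits with a library left out that tested it, its adjusted p was 0.0271 to 0.119, the highest without the first control library. In those fits SEMA5B passed the filter through the knockdown group, where its counts were higher, so these values are no further support. For the others, no change was detectable at this depth.

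The share of called members varied with expression level. Below an average of 4 CPM, 6 of 12 members were higher and 2 lower, against 12.3% and 3.09% of all tested genes at that level. Between 4 and 32 CPM, 7 of 19 members were higher and 1 lower, or 36.8% and 5.26%, against 17.5% and 10.3%. At 32 CPM and above, 6 of 21 members were higher and 5 lower, or 28.6% and 23.8%, against 10.6% and 20.7%. The median log2 fold change over all tested genes was 0.15 in the lowest range, 0.02 in the middle and -0.05 in the highest, so low genes stood above high ones in the data as a whole. With offsets that remove this trend, 17 members were higher and 6 lower, and the members' median was 0.05.

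**Figure D4:**
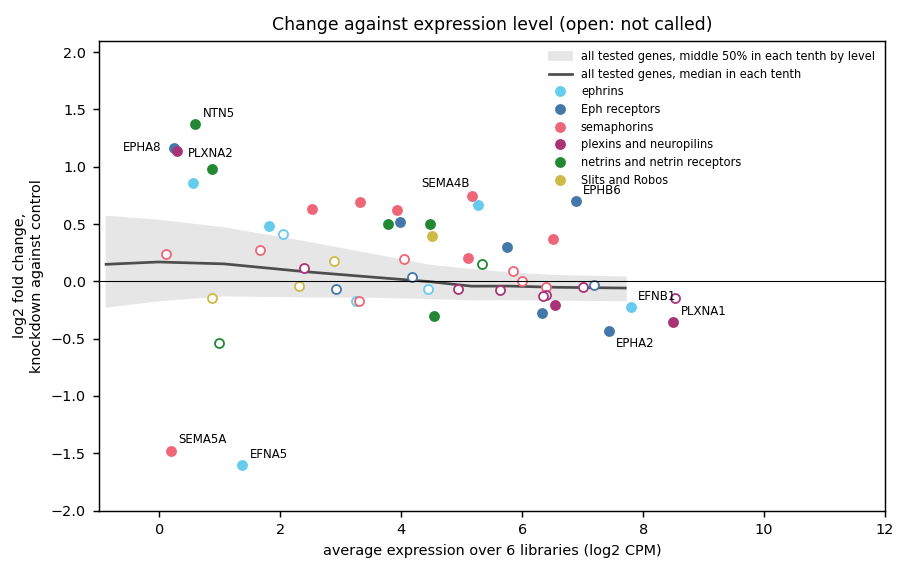
Log2 fold change of the 52 tested axon guidance genes against their average expression in log2 CPM, over the median (line) and the middle 50% (grey) of all tested genes in 10 groups of equal size by level; filled points passed the test. EPHB6, SEMA4B, EPHA2 and PLXNA1 lie outside the grey band at high levels, and NTN5, EPHA8, PLXNA2, EFNA5 and SEMA5A lie outside it at low levels.

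The 3′ UTR words described above were counted in the longest annotated 3′ UTR of each tested gene. At least 1 Pumilio word occurred in 7 of the 8 lower members, 6 of the 19 higher members and 10 of the 25 not called members, against 28.3% of 13594 tested genes with an annotated 3′ UTR. The AU-rich word occurred in 6, 7 and 11 of these members, against 34.3% of the tested genes. The lower members had longer UTRs, with a median of 3359 bases against 1033 in the higher members, 1335 in the not called members and 1327 in the tested genes. Per kilobase of UTR, the lower members held 0.413 Pumilio words, the higher members 0.165, the not called members 0.347 and the tested genes 0.224. UNC50, which is no netrin receptor, had the shortest UTR of the lower members, with 2 Pumilio words in 227 bases. EPHA2 was the lower member without a Pumilio word. Among genes with a 3′ UTR at least as long, cut to the same number of bases after the stop codon, the Pumilio word occurred in 72.5% for the length of SEMA5A, 58.1% for PLXNA3, 52.5% for EFNA5, 44.8% for PLXNA1, 44.6% for EPHA4, 24.1% for EFNB1, 15.2% for EPHA2 and 4.01% for UNC50. For the AU-rich word, in the same order of genes, these shares were 81.46, 68.34, 64.85, 57.55, 56.99, 32.11, 20.11 and 5.28%. A match is a word in a sequence, and no binding was measured.

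Other genes of these pathways, 60 in 4 lists, were read from the same fit. Of 54 tested, 17 were higher and 7 lower, which is 44.4% called against 25.2% of all tested genes. Their median log2 fold change was 0.09. The lists were chosen with earlier results of these data known, so their share is a description and no independent support. With at least 10 counts in every library, 15 of 51 were higher and 7 lower. Among the co-receptors and further cues, 7 of 14 tested were higher and 1 lower, or 57.1% called, with a median of 0.37. This count includes 2 higher genes with fewer than 10 counts in a control library, among them NRCAM with 1, 1 and 4 counts in controls and 11, 13 and 15 in knockdowns, which passed the filter through the knockdown group. With at least 10 counts in every library, 5 of 11 were higher and 1 lower, with a median of 0.23. NTNG2, a membrane-anchored netrin relative, rose from 4.72 ± 0.44 to 13.2 ± 0.92 CPM (log2 fold change 1.48, SE 0.12, adjusted p = 7.8e-08). NFASC, a cell adhesion molecule of the L1 family, rose from 0.970 ± 0.10 to 3.27 ± 0.71 CPM (1.74, SE 0.23, adjusted p = 2.96e-05). DRAXIN, a secreted ligand of netrin receptors, rose by 0.89 on the log2 scale, and MET, the receptor of hepatocyte growth factor and a partner of B plexins, by 0.34 (adjusted p = 0.00014 and 0.0025).

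The netrin and Slit effectors had 5 higher and 2 lower of 12 tested, or 58.3% called against 25.2% of all tested genes. ENAH, an actin regulator of the Ena/VASP family, rose from 60.5 ± 0.86 to 104.1 ± 5.55 CPM (log2 fold change 0.78, SE 0.06, adjusted p = 5.66e-08), and its relative EVL rose by 0.55 on the log2 scale (adjusted p = 0.000683). TRIM9, a ubiquitin ligase that binds DCC, rose from 6.001 ± 0.83 to 13.8 ± 0.61 CPM (log2 fold change 1.199, SE 0.12, adjusted p = 9.96e-07). SRGAP3, which acts downstream of Robos, rose from 0.850 ± 0.13 to 2.50 ± 0.46 CPM (log2 fold change 1.55, SE 0.24, adjusted p = 0.000155). All 4 had groups that did not overlap.

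The plexin effectors were split, with 3 higher and 4 lower of 19 tested and a median log2 fold change of 0.00. Their called share was 36.8%, against 25.2% of all tested genes. MICAL2, an enzyme that oxidises actin, fell from 133.4 ± 2.19 to 93.0 ± 2.19 CPM (log2 fold change -0.52, SE 0.05, adjusted p = 2.17e-06). The collapsin response mediator genes CRMP1 and DPYSL3 rose by 0.70 and 0.55 on the log2 scale (adjusted p = 2.81e-05 and 0.000233), and the kinase gene GSK3B stood at 85.01% of control (adjusted p = 0.00417). Of 9 tested Eph effectors, 2 were higher, or 22.2% called, a share near the 25.2% of all tested genes. They were the exchange factors TIAM1 (log2 fold change 0.25, adjusted p = 0.00591) and VAV2 (0.20, adjusted p = 0.0318). Both calls were lost when the first knockdown library was left out, and 1 gene of the list was called without the second control, the third control or the third knockdown library.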

How the data were processed

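Total RNA of 3 control and 3 CNOT7 knockdown libraries was extracted with TRIzol and made into libraries with a NEBNext Ultra kit. The authors deposited a table of raw counts, 1 row a gene and 1 column a library, not normalized. The submitters' processing notes name CASAVA 1.8, fastp, HISAT2 2.0.5, featureCounts 1.5.0-p3 and DESeq2 1.20.0 with GRCh38, and the strand setting is not given in the sources used here. Gene identifiers and positions matched GENCODE release 29.

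Counts were tested in R 4.3.3 with edgeR 4.0.16: filterByExpr on low counts, TMM normalization, glmQLFit and glmQLFTest between the groups over all 17574 tested genes, and Benjamini-Hochberg adjustment at 0.05. SEs were derived from the log2 fold change and its F statistic (size over root F). CPM are TMM-normalized, with SD over 3 libraries, and CPM per kilobase use the length in the deposited table. Replicates differed by more than sampling noise, so none was a copy. Total counts were 23788451 to 29104872 per library, and the SEs give the precision this depth allows.

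Members were named where called, where highest in level in their family or paired with a called member, and by name where not tested, and at most 4 called genes, by smallest adjusted p, were named from each further list. A further list of pathway genes is not reported here. The members and lists were chosen with earlier results of these data known. Alternatives were RLE factors, DESeq2 1.42.0, no filter, at least 10 counts in every library, the replicate number as a block, cyclic loess offsets (limma 3.58.1), each library left out, and calls only from 1 in log2 size. The steps were tested on simulated data. Sequences were searched with Python 3.11.15, and promoters came from RefSeq (GRCh38.p14).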

Additional observations from a re-analysis of the deposited data

How the results depend on the processing

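Of the 27 called members, 22 kept the call under every alternative of normalization, filter, test, replicate block and left-out library (16 higher, 6 lower), 5 lost it at least once (EFNA2, EFNA3, EFNB1, PLXNA3 and SEMA4F), and 0 changed direction. Of the tested members not called, 6 gained the call at least once (EFNB2, NTN1, NTN4, NRP2, PLXNB1 and PLXNB2), and PLXNB2 did so with RLE factors and without a filter. With 3 libraries a group, low counts limit what could be called among low genes. The count of higher and lower members was 18 and 9 with RLE factors, 16 and 8 with DESeq2, 18 and 9 of 68 tested without a filter, 19 and 8 with at least 10 counts in every library, 17 and 6 with cyclic loess, and 16 to 19 and 6 to 10 with a library left out, while 13.2 to 37.0% of all tested genes were called. A minimum absolute log2 fold change of 1 left 5 of the 52 tested members called, 3 higher and 2 lower, against 3.63% of all tested genes.

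Called ephrins were 3 with DESeq2, 2 with cyclic loess and 2 to 4 with a library left out, lowest without the first control library. Called plexins and neuropilins were 2 to 5 with a library left out, highest without the second control library. Called plexin effectors were 4 to 8, lowest without the first control library, and Eph effectors 0 to 3, and 1 without the filter on low counts. The causes were not tested.

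With the replicate block, 21 members were higher and 11 lower, and the called plexins and neuropilins were 6, with PLXNB2 (adjusted p = 0.000772), PLXNB1 (0.0264) and NRP2 (0.0285) called in addition. Whether the shared numbers pair the libraries is not stated. The deviations of same-numbered libraries correlated at 0.02, 0.15 and -0.02, and not every library correlated best with its own number. With the block 37.0% of all tested genes were called, against 25.2% without it. An effect shared by libraries of the same number was not tested further.

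Signs changed only in members that were not called: EPHB4 was 0.025 and PLXND1 0.0034 with cyclic loess, and SEMA4C was -0.0078 with RLE factors, -0.0078 with DESeq2 and -0.018 without a filter. With a library left out, the log2 fold change of EPHA10 ranged from -0.21 to 0.051, EPHB3 from -0.014 to 0.12, EPHB4 from -0.071 to 0.020, ROBO3 from -0.10 to 0.064, SEMA3B from -0.13 to 0.019 and SEMA4C from -0.065 to 0.039.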
